A study of Oryctolagus cuniculus with 35 samples.

Results

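The genes described here build and serve the lysosome in rabbit lung: the autophagy genes, the subunits of the vacuolar ATPase, the cathepsins, the lysosomal membrane and lipid transporters, and the VPS genes of endosomal and vacuolar sorting. They were found by name, and 97 of the 23669 genes in the deposited tables carry a matching name. Of these 97, 32 were listed at 0 in all 35 libraries and 65 had reads. One of the names, VPS72, is caught by its letters alone, since its product is a subunit of chromatin-remodelling complexes.

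Autophagy wraps a part of the cell in a double membrane, the autophagosome, and delivers it to the lysosome. The vacuolar ATPase, a rotary proton pump with a cytosolic V1 sector and a membrane V0 sector, acidifies the lysosome, where cathepsins digest protein. In lung, alveolar macrophages and neutrophils use the same machinery to destroy bacteria that they have taken up, and alveolar type II cells store surfactant in lysosome-related organelles.

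The study has 5 groups of New Zealand rabbits, each of 7 animals with a lung library apiece, so that p-values measure the spread between rabbits. Rabbits of 4 groups had pneumococcal pneumonia together with adverse mechanical ventilation, and were given ceftaroline plus MSC, ceftaroline alone, MSC alone or NaCl 4 h after inoculation. The lung was taken at 24 h, or at death where this came earlier. Ceftaroline, a cephalosporin antibiotic, was injected into muscle at 20 mg per kg, and MSC, mesenchymal stromal cells from human umbilical cord, were given into a vein at 3000000 cells per kg. The rabbits of the fifth group are labelled healthy, with NaCl as their treatment. Pneumonia and ventilation came together in each of the 4 groups, so that their effects cannot be told apart. The age of the rabbits is not given in the labels. Each library is a whole piece of lung, where fewer cells of a type and less RNA per cell cannot be told apart.

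The libraries held between 7567008 and 33209729 recovered reads (median 11137017). Values below are the deposited normalized reads, which are reads divided by a size factor for the library; they are not divided by gene length, so levels are compared between lungs and not between genes. Fold changes are on the scale of log2(normalized reads + 1), and a gene is called at a limma adjusted p under 0.05. The surfactant gene SFTPB and the type II cell transporter SLC34A2 had reads in these lungs, but SFTPC, SFTPD and ABCA3 were listed at 0 in all 35 libraries. A total of 3 libraries of the NaCl group, 5 of the healthy group and 2 of the MSC group carry the letters PD or PG at the end of their title, whose meaning the labels do not give, and several members stood apart between NaCl libraries with and without them. Calls that changed within a kind of title, with or without an ending, are therefore named below, some with their values. All 3 NaCl libraries with an ending carry PG, while 4 of the healthy ones carry PD and 1 carries PG. In that subset PG against PD can hardly be told apart from NaCl against healthy. Libraries without an ending are 4 of NaCl and 2 of healthy. A call lost in so small a subset was not told apart from a lost effect. All 7 healthy libraries and NaCl replicate 2 also share a mark, S00, in their sample names that no other library has, so what it stands for and the healthy group can hardly be told apart.

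Members listed at 0 included several of the best known names of the pathway: the cargo receptor SQSTM1, the kinase ULK1, the lysosomal membrane protein LAMP1 and the cation channel MCOLN1. The autophagosome marker MAP1LC3B, LAMP3 and the cathepsins CTSD and CTSL have no gene row of that name. A listing at 0 in every library gives no measure of expression, since genes such as MTOR were listed in the same way. Of the 65 members with reads, 57 reached at least 10 normalized reads in at least 7 of the 14 libraries of every table. The other 8 were ATP6AP1L, ATP6V1B1, ATP6V1E2, ATP6V1G3, ATG9B, CTSG, LAMP5 and NPC1L1. CTSG, a serine protease of neutrophil granules, had 48 reads in all, spread over 8 libraries, and was at 0 in all 7 NaCl and all 7 healthy lungs.

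The first comparison asks what differs in pneumonia with ventilation, in NaCl lungs against healthy lungs, and 32 of the 57 tested members did. Genes for 4 cathepsins, 4 vacuolar ATPase subunits, LAMP2, ATG5, VPS29 and VPS13A were higher, 12 in all. A total of 20 were lower, among them all 5 tested subunits of the HOPS and CORVET tethers, GABARAPL1 and GABARAPL2, ATG4C, ATG10 and ATG14, and the lysosomal membrane proteins NPC1 and MCOLN3. Across all 9545 genes tested 60.6% were called, 29.7% higher and 30.9% lower, and the share of the members called, 56.1%, was near that of all genes. The 2 groups did not overlap for 5 members that were higher and 10 that were lower, and across all genes they did not overlap for 14.7% in the higher and 15.2% in the lower direction. The median log2 fold change of the 57 members was -0.12, beside 0.00 for all genes. With reads scaled to the library total in place of the size factors, the median of all genes moved to -0.45, the calls over all genes to 1476 higher and 4342 lower, against 2836 and 2952 by size factors, and the members to 5 higher and 30 lower. The changes below are therefore relative to the size factors. The plot of fold changes by role shows most cathepsins and most pump subunits to the right of 0 and the tethers to its left.

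**Figure D1:**
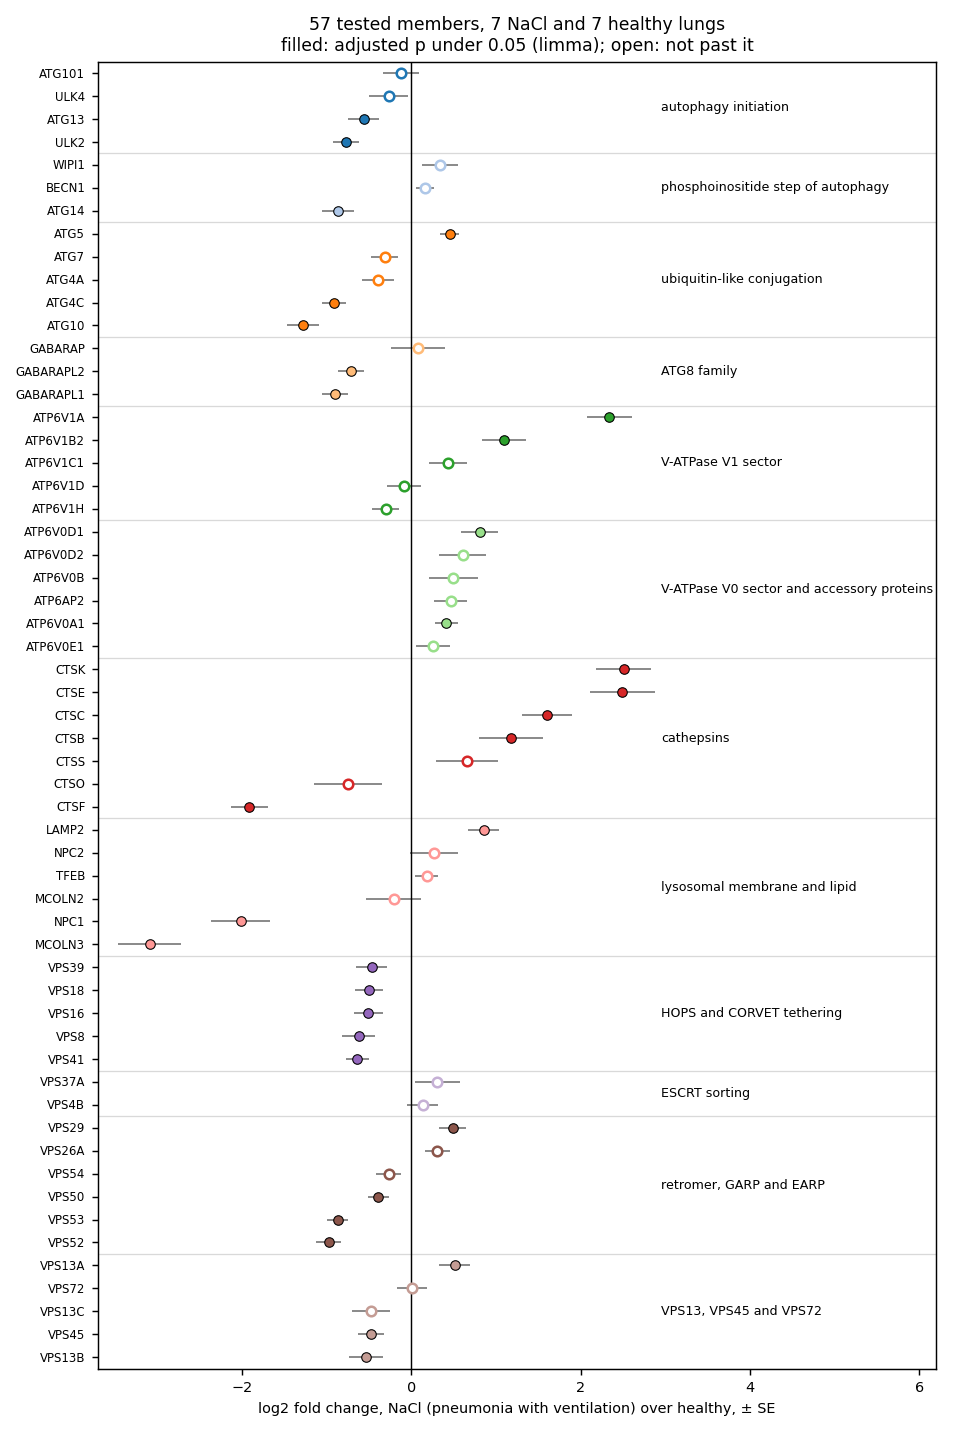
Log2 fold change of normalized reads in NaCl lungs over healthy lungs, with its SE, for the 57 tested members grouped by role (7 lungs per group). Filled points passed the adjusted p threshold of 0.05: CTSK at 2.51 is farthest to the right and MCOLN3 at -3.09 farthest to the left.

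Among genes that start autophagy, ULK2, a kinase related to ULK1, had 102, 113 and 154 normalized reads in NaCl lungs (lowest, median and highest), against 154, 218 and 256 in healthy lungs. The highest NaCl lung just overlapped the lowest healthy one, and the fall passed the test (log2 fold change -0.77 ± 0.16 SE, adjusted p = 0.000578). ATG13, which binds these kinases, had a smaller estimate (log2 fold change -0.56 ± 0.19 SE, adjusted p = 0.0156) and lost its call among libraries with a title ending (adjusted p = 0.161). ATG14, which brings the lipid kinase complex of autophagy to its membrane, had 22.7, 26.7 and 35.7 normalized reads in NaCl lungs, against 36.1, 55.96 and 73.4 in healthy lungs. These groups did not overlap, and ATG14 fell (log2 fold change -0.87 ± 0.19 SE, adjusted p = 0.00119). BECN1, the partner of ATG14 in that complex, had 476, 544 and 595 normalized reads in NaCl lungs, against 407, 483 and 559 in healthy lungs, and its difference did not pass the test (0.16 ± 0.11, adjusted p = 0.203).

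The conjugation steps attach ubiquitin-like proteins to each other and to lipid, and their genes went in both directions. ATG10, which joins ATG12 to ATG5, had 55.5, 71.3 and 91.3 normalized reads in NaCl lungs, against 124, 177 and 265 in healthy lungs. Every NaCl lung was below every healthy lung, and ATG10 had the largest fall of the tested ATG genes (log2 fold change -1.28 ± 0.19 SE, adjusted p = 3.2e-05). ATG4C, a protease that processes the ATG8 proteins, had 118, 138 and 159.5 normalized reads in NaCl lungs, against 202, 278 and 319 in healthy lungs, again without overlap (log2 fold change -0.92 ± 0.14 SE, adjusted p = 5.24e-05). ATG5, the acceptor of ATG12, had 619, 721 and 870.3 normalized reads in NaCl lungs, against 468, 522 and 611 in healthy lungs. Here every NaCl lung was above every healthy lung (log2 fold change 0.46 ± 0.11 SE, adjusted p = 0.00226). This rise depended on the scale: with reads scaled to the library total, ATG5 stood at 0.00, and the call was also lost within either kind of title.

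ATG8 proteins are the ubiquitin-like tags of the autophagosome membrane. GABARAPL1 had 302, 430.5 and 509.8 normalized reads in NaCl lungs, against 516, 784 and 1012 in healthy lungs, and GABARAPL2 had 732, 1074 and 1317 in NaCl lungs, against 1446, 1598 and 1861 in healthy lungs. Neither gene's groups overlapped, and both genes fell (-0.90 ± 0.16, adjusted p = 0.000143, and -0.71 ± 0.15, adjusted p = 0.000858). The call of GABARAPL2 was lost among libraries without a title ending (-0.36, adjusted p = 0.167). GABARAP, their relative, had 5055, 16605 and 23164 normalized reads in NaCl lungs, against 8649, 11413 and 15164 in healthy lungs, and passed no test over all libraries (0.08 ± 0.32, adjusted p = 0.849). Its estimate went opposite ways within the titles: 0.97 (adjusted p = 0.0205) for 4 NaCl and 2 healthy lungs without an ending, and -0.91 (adjusted p = 0.00255) for 3 NaCl and 5 healthy lungs with one.

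Of the 11 vacuolar ATPase genes tested, 4 were called higher and none lower, beside 29.7% and 30.9% of all genes, so that the share called higher was near that of all genes. The 4 genes were 2 in each sector. ATP6V1A, the catalytic subunit, had 55.8, 97.97 and 125 normalized reads in NaCl lungs, against 10.02, 16.9 and 28.2 in healthy lungs. Every NaCl lung was above every healthy lung, 5.07-fold by the estimate (log2 fold change 2.34 ± 0.26 SE, adjusted p = 2.36e-06), although the healthy values rest on few reads. ATP6V1B2, its partner at the ATP-binding sites, had 2931, 7150 and 9585 normalized reads in NaCl lungs, against 1998, 2785 and 3480.1 in healthy lungs, with some overlap (log2 fold change 1.09 ± 0.26 SE, adjusted p = 0.00175). In the V0 sector ATP6V0D1, which joins the rotor to the V1 stalk, had 1884, 3485 and 5272 normalized reads in NaCl lungs, against 1238, 1671 and 2371 in healthy lungs, with some overlap, and rose (log2 fold change 0.81 ± 0.22 SE, adjusted p = 0.00474). This call was lost among libraries with a title ending (0.28, adjusted p = 0.282) and with library-total scaling. The rise of ATP6V0A1, a proton-channel subunit, was smaller (0.42 ± 0.14, adjusted p = 0.0167) and turned to -0.04 with reads scaled to the library total, and it was not called within either kind of title. ATP6V0D2, a tissue-restricted form of the d subunit known from osteoclasts and macrophages of the mouse, had 254, 471 and 572 normalized reads in NaCl lungs, against 102, 336 and 427 in healthy lungs, and did not pass the test (0.61 ± 0.28, adjusted p = 0.0679). ATP6V1H, a regulatory subunit of V1, had 552, 649 and 1153 normalized reads in NaCl lungs, against 721, 814 and 1158 in healthy lungs (-0.30 ± 0.16, adjusted p = 0.121).

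The called V-ATPase genes depended on the kind of library. Among libraries without a title ending 7 of 11 were called higher (4 in V0 and 3 in V1) and none lower, beside 20.6% higher and 16.8% lower of all genes in that subset. Among those with an ending 1 was higher and 2 lower, beside 27.1% and 29% of all genes. Scaling to the library total left 2 of the 11 called higher and 2 lower, beside 15.5% and 45.5%. ATP6V1A was called higher in every one of these settings, at 1.89 without an ending and 2.38 with one. ATP6V1B2 kept its call without an ending (1.65, adjusted p = 0.00174) but not with one (0.39, adjusted p = 0.132).

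Cathepsins gave the largest rises among the members. CTSK, a cysteine protease that cuts collagen, had 8421, 20049 and 41385 normalized reads in NaCl lungs, against 2685, 3081 and 3550.2 in healthy lungs. The groups did not overlap, and the estimate was 5.69-fold (log2 fold change 2.51 ± 0.32 SE, adjusted p = 8.27e-06). CTSE, an aspartic protease of endosomes, had 2364, 10237 and 20462 normalized reads in NaCl lungs, against 895, 1477 and 2390.1 in healthy lungs, where only 1 NaCl lung reached into the healthy range (log2 fold change 2.49 ± 0.38 SE, adjusted p = 4.69e-05). CTSC, which activates the serine proteases of neutrophil granules, had 2228, 6830.1 and 8339 normalized reads in NaCl lungs, against 1238, 1507 and 1849.7 in healthy lungs, without overlap (log2 fold change 1.60 ± 0.30 SE, adjusted p = 0.000253). Within NaCl lungs these values fell into separate ranges by title: CTSC lay at 2228 to 2693 in the 3 lungs with an ending, and at 6830 to 8339 in the 4 without. All 3 genes were called higher within either kind of title.

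CTSB, a cysteine protease found in most cells, had 10051, 31407 and 52032 normalized reads in NaCl lungs, against 7728, 9749 and 13875 in healthy lungs. The 3 NaCl lungs with a title ending lay inside the healthy range (log2 fold change 1.18 ± 0.37 SE, adjusted p = 0.0128). Its rise was present in libraries without a title ending (1.96, adjusted p = 0.00247), while with an ending it measured 0.10 (adjusted p = 0.687), and it was not called with reads scaled to the library total. CTSS, which trims the invariant chain in antigen-presenting cells, had 1681, 4277 and 13336 normalized reads in NaCl lungs, against 2144, 2512 and 3294 in healthy lungs. It missed the threshold over all libraries (0.66 ± 0.36, adjusted p = 0.126) but passed it in edgeR, in DESeq2 and among libraries without an ending. CTSF, a cysteine cathepsin, went the other way, with 134, 248 and 432 normalized reads in NaCl lungs, against 726, 900.4 and 1246 in healthy lungs. No NaCl lung reached the healthy range (log2 fold change -1.91 ± 0.22 SE, adjusted p = 3.04e-06), and the fall was called within either kind of title (-1.74 without and -2.26 with an ending).

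Genes of the lysosomal membrane held the largest fall of the members. MCOLN3, a cation channel of endosomes and lysosomes, had 3.44, 10.2 and 26.2 normalized reads in NaCl lungs, against 55.96, 79.3 and 159 in healthy lungs. The groups did not overlap (log2 fold change -3.09 ± 0.37 SE, adjusted p = 4.77e-06), although the NaCl values rest on few reads. NPC1, which exports cholesterol from the lysosome, had 664, 1379.6 and 4103 normalized reads in NaCl lungs, against 5393, 6275 and 8312 in healthy lungs, without overlap (log2 fold change -2.02 ± 0.35 SE, adjusted p = 0.000149). NPC1 was lowest in the 4 NaCl lungs without a title ending, at 664 to 1380 normalized reads (-2.70 within that kind of title), and stood at 2829 to 4103 in the 3 with one (-1.06). NPC2, the soluble partner that hands cholesterol to NPC1, had 4344, 5599 and 7163 normalized reads in NaCl lungs, against 2274, 6129.6 and 8166 in healthy lungs, and did not pass the test (0.27 ± 0.29, adjusted p = 0.432).

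LAMP2, an abundant glycoprotein of the lysosomal membrane, had 5282, 5984 and 8155 normalized reads in NaCl lungs, against 2168, 3918 and 4609.5 in healthy lungs. Every NaCl lung was above every healthy one (log2 fold change 0.85 ± 0.18 SE, adjusted p = 0.000803), and with reads scaled to the library total the estimate was 0.40 and no longer called. TFEB, the transcription factor that drives lysosomal genes, had 643, 821 and 1063 normalized reads in NaCl lungs, against 609, 724 and 853 in healthy lungs. The TFEB groups overlapped and the difference did not pass the test (0.18 ± 0.13, adjusted p = 0.245). In the plot of single libraries, CTSB and CTSC show the split by title and MCOLN3 and ATG10 show none.

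**Figure D2:**
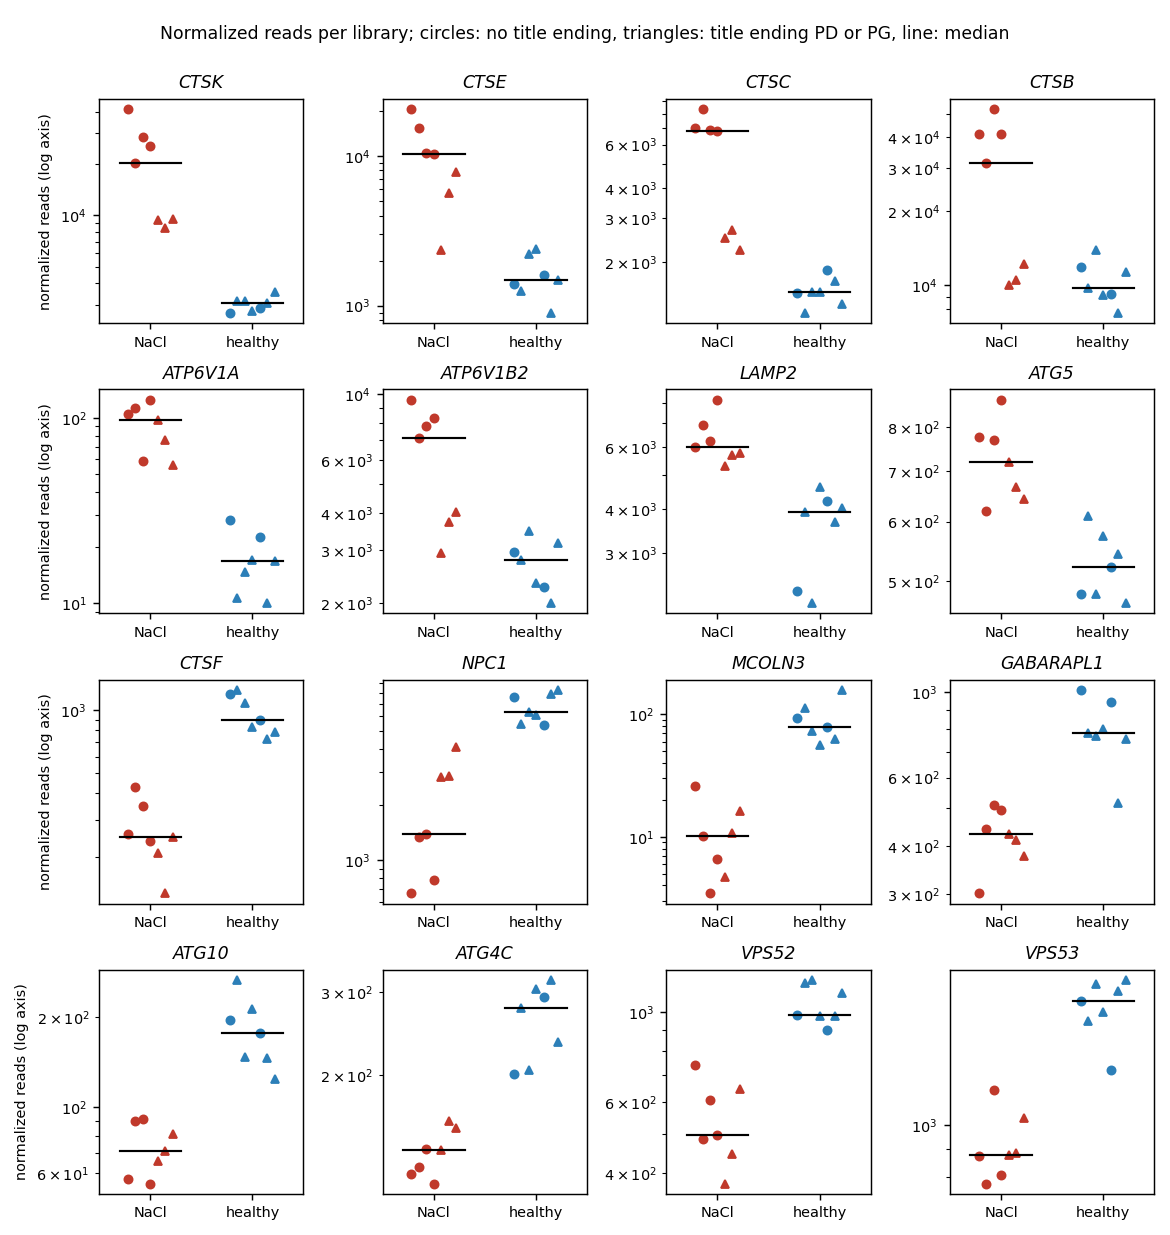
Normalized reads per library on log axes for 16 members, with the 7 NaCl lungs on the left and the 7 healthy lungs on the right of each panel; circles are libraries without a title ending, triangles libraries with one, and lines are medians. The 4 NaCl circles of CTSB lie at 31407 to 52032 and its 3 triangles at 10051 to 12241, while MCOLN3 has all 7 NaCl lungs at or under 26.2.

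HOPS and CORVET tether endosomes and autophagosomes to their target before fusion, and all 5 of their tested subunits were called lower, with falls of 0.46 to 0.64 on the log2 scale, beside 30.9% of all genes. VPS41, which is specific to HOPS, had 627, 696 and 1100.4 normalized reads in NaCl lungs, against 1051, 1115 and 1482 in healthy lungs. Only the highest NaCl lung entered the healthy range (log2 fold change -0.64 ± 0.13 SE, adjusted p = 0.000754). VPS8, specific to CORVET, followed at -0.62 ± 0.19 (adjusted p = 0.0122), the shared core subunits VPS16 and VPS18 at -0.50 and -0.50 (adjusted p = 0.019 and 0.0182), and VPS39, a HOPS subunit, at -0.46 (adjusted p = 0.0371). All 5 were called lower among libraries with a title ending, beside 29% of all genes, but 1 of 5, VPS41, among those without, beside 16.8%. VPS8, VPS16, VPS18 and VPS39 kept lower estimates in that subset, which has only 2 healthy lungs. The call of VPS39 was also missed by DESeq2 on the recovered reads (adjusted p = 0.0608), stands at an adjusted p of 0.0683 in the authors' deposited table, and failed when any one of 9 single libraries was left out (healthy replicates 1, 2, 3 and 7, and NaCl replicates 2, 4, 5, 6 and 7).

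GARP and EARP return vesicles from endosomes, and VPS52 and VPS53, subunits that both complexes share, fell without overlap. VPS51, also shared by both, was listed at 0 in every library. VPS52 had 377, 498 and 739 normalized reads in NaCl lungs, against 903, 985 and 1199 in healthy lungs (log2 fold change -0.98 ± 0.15 SE, adjusted p = 3.92e-05). VPS53 had 777, 878 and 1164 normalized reads in NaCl lungs, against 1269, 1713 and 1873 in healthy lungs (log2 fold change -0.87 ± 0.12 SE, adjusted p = 2.29e-05). VPS50, specific to EARP, was also called lower (-0.39 ± 0.13, adjusted p = 0.0158), though not among libraries without a title ending, while VPS54, specific to GARP, did not pass the test (-0.27 ± 0.15, adjusted p = 0.132). VPS29, a retromer subunit, had 2763, 3896 and 5781 normalized reads in NaCl lungs, against 2232, 2675 and 2977 in healthy lungs, and rose (log2 fold change 0.49 ± 0.16 SE, adjusted p = 0.0143); the call was lost with library-total scaling and among libraries with a title ending. Neither ESCRT gene with reads, VPS37A or VPS4B, was called over all libraries (0.31 ± 0.27 and 0.14 ± 0.18, adjusted p = 0.331 and 0.531). Within NaCl lungs VPS37A lay at 344 to 417 normalized reads in the 3 with a title ending and at 163 to 306 in the 4 without.

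VPS13 proteins carry lipid between membranes, and their genes differed. VPS13A had 97.1, 152 and 173 normalized reads in NaCl lungs, against 71.7, 109 and 125 in healthy lungs, and rose (log2 fold change 0.51 ± 0.18 SE, adjusted p = 0.0217). VPS13B had 46.2, 69.7 and 98.3 normalized reads in NaCl lungs, against 70.5, 100.2 and 142 in healthy lungs, and fell (log2 fold change -0.53 ± 0.20 SE, adjusted p = 0.0316). Both ranges overlapped with healthy lungs, and neither call was kept within either kind of title. The call of VPS13B also failed without any one of healthy replicates 2, 3 and 6 and NaCl replicates 1 and 4. VPS45, which guides membrane fusion at endosomes, fell (-0.48 ± 0.15, adjusted p = 0.0145) but was not called within either kind of title.

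**Figure D3:**
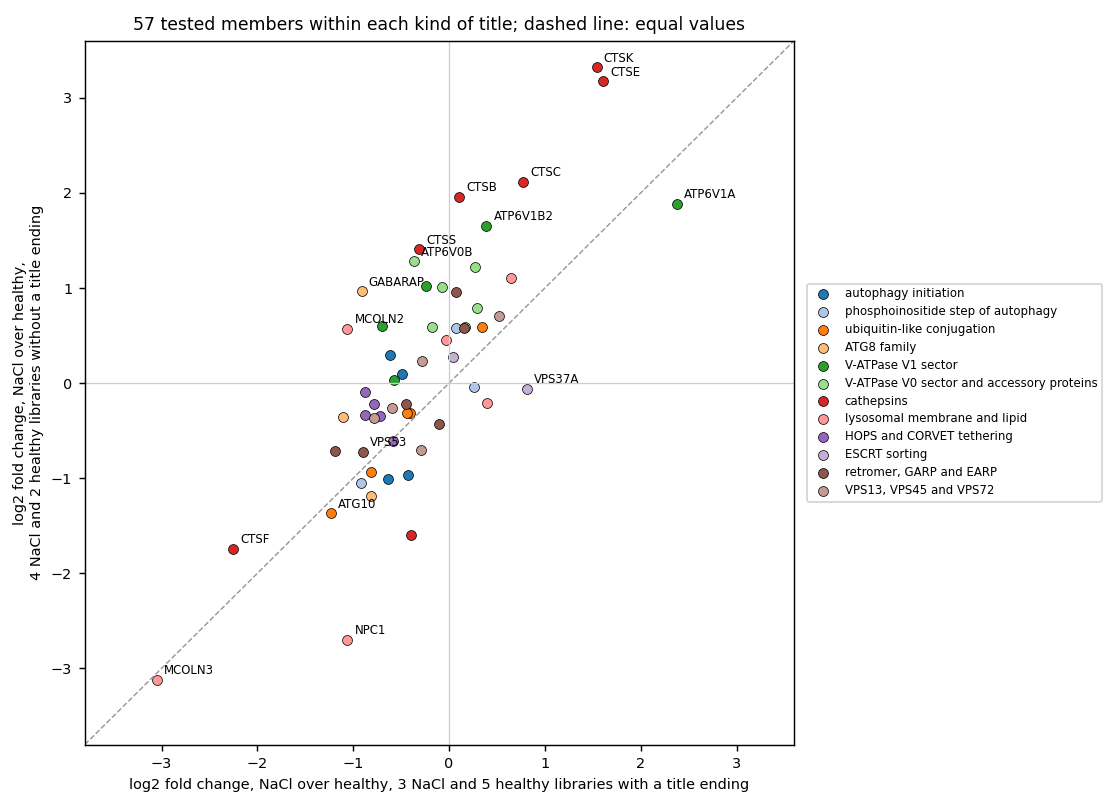
Log2 fold change of each of the 57 tested members in NaCl over healthy lungs among libraries with a title ending (horizontal) and without one (vertical); the dashed line marks equal values. MCOLN3 and ATG10 lie near the line, while CTSB measured 0.10 with an ending and 1.96 without.

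Other genes of the pathway moved in both directions. Of 27 other tested autophagy genes, 6 were higher and 8 lower (median -0.02), with VMP1, a membrane protein of early autophagosomes, at 2.31 and CALCOCO1, a cargo receptor, at -1.97. Genes of MTORC1 and lysosomal nutrient sensing gave 7 higher and 8 lower of 22 (median 0.18), with the AMPK subunit PRKAB2 at 1.79 and the Rag GTPase RRAGB at -2.55. Other lysosomal hydrolases and membrane proteins gave 3 higher and 16 lower of 35 (median -0.42), from CD63 at 0.84 among the called rises to TMEM9 at -2.09. Among the 4 tested transcription factors related to TFEB or to lysosomal gene control, TFEC (1.94) and TFE3 (1.32) rose and MITF and FOXO3 were not called. The median of all genes was 0.00 in this comparison. The shares called were 51.9% of other autophagy genes, 68.2% of nutrient-sensing genes and 54.3% of other lysosomal genes, beside 60.6% of all genes. Over all genes 29.7% were higher and 30.9% lower, beside 8.57% and 45.7% of the other lysosomal genes.

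Marker genes of some other cells moved with the same groups. All 6 tested neutrophil markers were higher, with a median log2 fold change of 5.07. The summed level of the 8 neutrophil markers with reads, in reads scaled to the library total (RPM), was 14928 to 110656 in NaCl lungs, against 1608 to 10546 in healthy lungs. Other neutrophil markers, among them CSF3R, MMP9, NCF1 and PADI4, were listed at 0. Of 14 macrophage markers 5 were higher and 2 lower, and their sum was 704 to 3415 RPM in NaCl lungs, against 1038 to 1943 in healthy lungs. All 3 tested alveolar type II, all 5 type I and all 5 ciliated cell markers were lower. Of 8 endothelial markers 1 was higher and 5 lower, and of 10 fibroblast and muscle markers 6 were lower and 0 higher. The 4 T and NK cell and 3 red cell markers gave 0 calls. Across all genes 29.7% were higher and 30.9% lower. Among NaCl lungs the neutrophil sum was 14928 to 51598 in the 3 with a title ending and 53792 to 110656 in the 4 without, and the fibroblast and muscle sum was 2284 to 5212 in those with and 724 to 1064 in those without. The part of these cells in the members' values was not tested.

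The effect of MSC alone was read in MSC lungs against NaCl lungs, where no member passed the threshold (limma, 0 of 57) and the share called among all 9446 genes was 0%. At an unadjusted p under 0.05 there were 11 members, all higher, beside 17.7% of all genes (9.58% higher). Estimates were above 0 for 39 of the 57, beside 51.1% of all genes, and the median was 0.10, beside 0.01. ATG4C had 139.7, 231 and 303 normalized reads in MSC lungs, against 119, 135 and 159.8 in NaCl lungs, in the scale of that table. Only 1 MSC lung fell inside the NaCl range (log2 fold change 0.66 ± 0.17 SE, adjusted p = 0.159). VPS13B had 77.9, 120.4 and 155 normalized reads in MSC lungs, against 46.8, 69.8 and 98.8 in NaCl lungs (0.74 ± 0.19, adjusted p = 0.159), and VPS13C, its relative, had 69.4, 98.1 and 152 in MSC lungs, against 36.1, 43.6 and 93.7 in NaCl lungs (0.87 ± 0.25, adjusted p = 0.159). VPS50 and VPS41 followed, at 0.45 ± 0.13 and 0.60 ± 0.18 (adjusted p = 0.159 and 0.166).

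Whether these 5 genes were called depended on the test. DESeq2 on the recovered reads called ATG4C, VPS13B, VPS13C, VPS41 and VPS50 higher, with 3.55% of all genes called. By edgeR no member and 0% of all genes were called. In the authors' deposited table the same 5 have adjusted p-values of 0.0179 for ATG4C, 0.022 for VPS13B, 0.0316 for VPS50, 0.0446 for VPS13C and 0.0471 for VPS41. With reads scaled to the library total, limma called these 5 and ATG7 (3.1% of all genes), and that scaling put the median of all genes at 0.31 in place of 0.01. Neutrophil markers had 5 of 6 tested genes at an unadjusted p under 0.05, all lower (median -1.53). The sum over the 8 with reads was 3244 to 58706 RPM in MSC lungs, against 14928 to 110656 in NaCl lungs. The part of neutrophils in the result was not tested.

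Ceftaroline alone, in ceftaroline lungs against the same NaCl lungs, also left no member past the threshold (limma, 0 of 57, and 0% of all 9614 genes). At an unadjusted p under 0.05 there were 14 members, all higher, beside 18.3% of all genes (9.9% higher). No ceftaroline library carries a title ending, while 3 of the 7 NaCl libraries do, so the ending is partly mixed with the treatment here. Estimates were above 0 for 44 of the 57, beside 51.9% of all genes, with a median of 0.20, beside 0.02. ATG4C had 193, 252 and 358 normalized reads in ceftaroline lungs, against 147, 168 and 199 in NaCl lungs, with 1 ceftaroline lung inside the NaCl range (log2 fold change 0.62 ± 0.16 SE, adjusted p = 0.134). MCOLN3 had 15.3, 33.97 and 157 normalized reads in ceftaroline lungs, against 4.28, 12.6 and 33.01 in NaCl lungs. Its ceftaroline lungs were spread widely and 3 of 7 were inside the NaCl range (log2 fold change 1.76 ± 0.51 SE, adjusted p = 0.137). VPS54 had 131, 151 and 187 normalized reads in ceftaroline lungs, against 89.1, 122 and 134 in NaCl lungs (0.45 ± 0.14, adjusted p = 0.152).

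ATP6V0D2 had 443, 1060.2 and 1915 normalized reads in ceftaroline lungs, against 309, 589 and 721 in NaCl lungs (0.92 ± 0.29, adjusted p = 0.156). ATP6V1H had 890.2, 1475 and 2803 normalized reads in ceftaroline lungs, against 671, 803 and 1454 in NaCl lungs (0.84 ± 0.27, adjusted p = 0.156). Both pump genes overlapped between the groups. On the scale used against healthy lungs, ATP6V0D2 in NaCl lungs lay at 254 to 431 with a title ending and 471 to 572 without. ATP6V1H in NaCl lungs lay at 552 to 684 with an ending and 621 to 1153 without. DESeq2 on the recovered reads called ATG4C, ATP6V0D2, ATP6V1H, MCOLN3 and VPS54 higher, with 5.4% of all genes called. By edgeR, and by limma on reads scaled to the library total, no member and 0% of all genes were called. The same 5 stand in the authors' deposited table at adjusted p-values of 0.0153 for ATG4C, 0.0198 for MCOLN3, 0.0248 for ATP6V0D2, 0.028 for VPS54 and 0.0387 for ATP6V1H. The MSC and ceftaroline comparisons share the 7 NaCl lungs, which also stand in the comparison with healthy lungs, and the ceftaroline lungs stand again in the comparison that follows, so genes common to these comparisons are not independent results. Of 8 tested neutrophil markers 7 had lower estimates, 3 of them at an unadjusted p under 0.05 (median -1.29), and their sum was 5592 to 104043 RPM in ceftaroline lungs, against 14928 to 110656 in NaCl lungs. Macrophage markers had a summed level of 1189 to 2859 RPM in ceftaroline lungs, against 704 to 3415 in NaCl lungs. The part of these cells in the members' values was not tested.

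**Figure D4:**
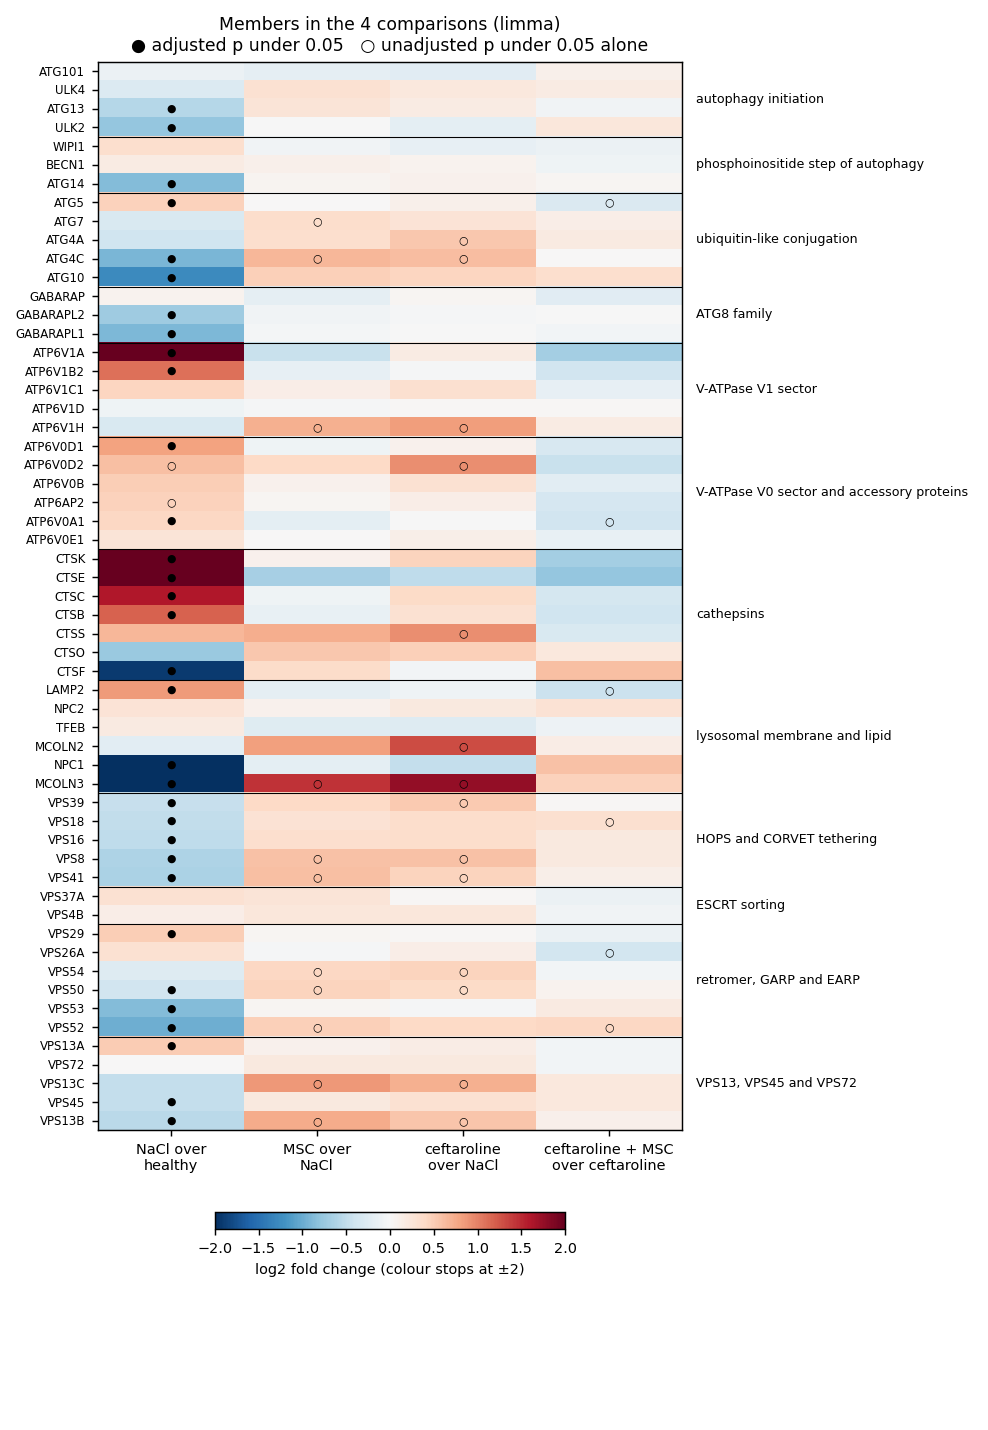
Log2 fold change of the 57 tested members in the 4 comparisons, as colour, in limma; filled dots mark an adjusted p under 0.05 and open dots an unadjusted p under 0.05 alone. All 32 filled dots stand in the column of NaCl over healthy; the open dots of MSC over NaCl (11) and of ceftaroline over NaCl (14) all mark higher estimates.

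MSC added to ceftaroline, in ceftaroline plus MSC lungs against ceftaroline lungs, gave no called member (limma, 0 of 57, beside 0.0403% of 9924 genes). DESeq2 and edgeR called no member either, beside 0.998% and 0.111% of all genes. At an unadjusted p under 0.05 there were 6 members, 2 higher and 4 lower, beside 11.5% of all genes (5.8% higher and 5.71% lower), and the median was -0.06, beside 0.00. ATP6V0A1 had 1469, 1738 and 2195 normalized reads in ceftaroline plus MSC lungs, against 1704, 2368 and 3119.5 in ceftaroline lungs (-0.38 ± 0.13, adjusted p = 0.405). VPS18 had 931, 1091 and 1204 normalized reads in ceftaroline plus MSC lungs, against 662, 908 and 1002 in ceftaroline lungs (0.32 ± 0.12, adjusted p = 0.422). LAMP2 had 5339, 7193 and 10014 normalized reads in ceftaroline plus MSC lungs, against 7578, 9334 and 13453 in ceftaroline lungs (-0.44 ± 0.16, adjusted p = 0.426). All 3 overlapped between the groups. Fibroblast and muscle markers had higher estimates for 10 of 10, 6 of them at an unadjusted p under 0.05 (median 0.87), and a sum of 2999 to 6768 RPM in ceftaroline plus MSC lungs, against 622 to 5091 in ceftaroline lungs. Neutrophil markers had lower estimates for 7 of 7 tested, 3 of them at an unadjusted p under 0.05 (median -1.79). The sum over the 8 with reads was 1752 to 42649 RPM in ceftaroline plus MSC lungs, against 5592 to 104043 in ceftaroline lungs. The part of both in the members' values was not tested.

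The difference between the MSC effect with ceftaroline and that without it was tested directly. No member passed the adjusted threshold (0 of 57, beside 0.265% of 9417 genes), and 5 had an unadjusted p under 0.05, beside 6.45% of all genes. ATG4C had the lowest p of the members: its log2 fold change with MSC was 0.00 with ceftaroline and 0.66 without, a difference of -0.65 ± 0.24 SE (adjusted p = 0.449). The edgeR interaction term called no member either, beside 2 of the 9417 genes.

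On 1 scale over all 35 libraries, set from 9765 genes with a read in every library, the 5 groups can be laid side by side as a description. MCOLN3 had 33.96, 65.1 and 79.1 scaled reads in ceftaroline plus MSC lungs, 15.2, 34.2 and 155 in ceftaroline lungs, 8.41, 37.9 and 107 in MSC lungs, 4.38, 12.9 and 33.2 in NaCl lungs and 71.3, 101 and 203 in healthy lungs. All 7 ceftaroline plus MSC lungs were above the highest NaCl lung for MCOLN3, but narrowly (33.96 against 33.15) and at few reads. VPS52 did not overlap either, with its lowest ceftaroline plus MSC lung at 965 and its highest NaCl lung at 936. The share of all genes without overlap was not counted on this scale, so these values do not set the members apart from other genes. ATG4C had 219.6, 247 and 337 in ceftaroline plus MSC lungs, 194, 251 and 363 in ceftaroline lungs, 177, 287 and 376 in MSC lungs, 149, 173 and 203 in NaCl lungs and 258, 356 and 405 in healthy lungs. Ceftaroline plus MSC lungs were not compared with NaCl lungs in a deposited table, and no test was made of that difference. CTSK had 7484, 22019 and 60096 in ceftaroline plus MSC lungs, 15439.9, 38123 and 55133 in ceftaroline lungs, 6695, 22594 and 55867 in MSC lungs, 10697, 25338 and 52438 in NaCl lungs and 3436, 3916 and 4538 in healthy lungs, so that each lung of the 4 pneumonia groups was above every healthy lung.

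**Figure D5:**
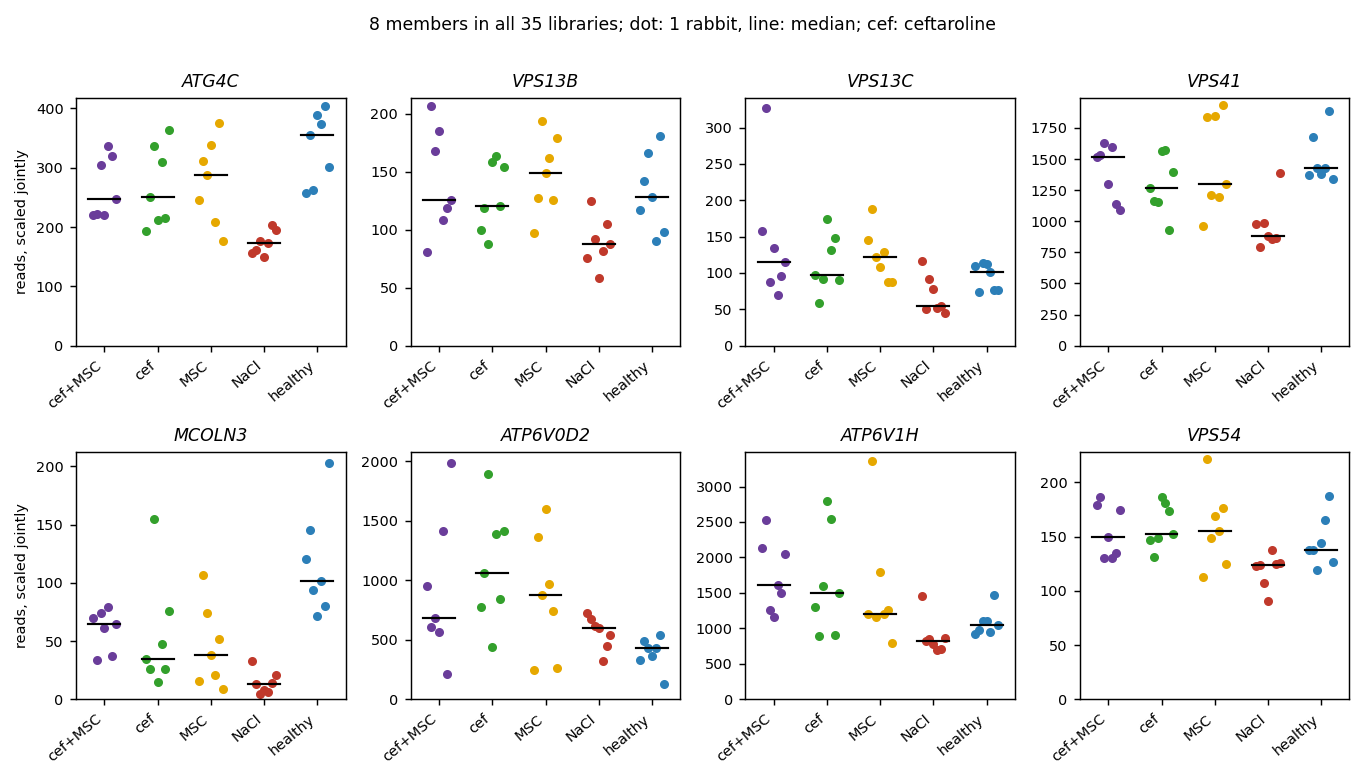
Reads scaled jointly over all 35 libraries for 8 members, by group, with 1 dot per rabbit and the median as a line. For ATG4C the NaCl lungs lie at 149 to 203 and the ceftaroline plus MSC lungs at 219.6 to 337, a difference that was not tested.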

How the data were processed

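Lung RNA of 35 rabbits was sequenced from stranded libraries in single reads of 75 bp, trimmed with Cutadapt 1.15, per the labels' protocols. TopHat2 2.1.1, featureCounts 1.5.2 and DESeq2 1.24.0 are named in the submitters' processing notes. Build, annotation and the strand setting of the counting were not given in the sources used here, so overlapping and antisense genes stay uncertain.

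The authors deposited 4 tables of 14 libraries each, with normalized reads per gene (a signal: reads divided by a size factor set in each table), and, per the file headers, their own DESeq2 results: log2 fold changes with standard errors, Wald scores, and raw and adjusted p-values. Division of each column by its smallest value above 0 gave whole reads for 100.0% of values, at a tolerance of 1e-06, and libraries in more than 1 table gave the same reads. Depth was 7567008 to 33209729 reads per library.

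limma 3.58.1 in R 4.3.3 was run in each table on log2(value + 1) of genes with at least 10 in at least 7 libraries, with an intensity trend, two-sided, and Benjamini-Hochberg adjustment over all genes tested, at 0.05. Alternatives were edgeR 4.0.16 and DESeq2 1.42.0 on the recovered reads, other pseudocounts, filters and thresholds, library totals, title endings, a replicate block and leaving out each library. The scripts were tested on simulated data. Members and lists were chosen with earlier results of these data known. Values are printed, in each role, for the called member with the largest rise and that with the largest fall in NaCl over healthy lungs at a mean of at least 50, for a set panel of members, and for the 3 members of lowest p in each treatment comparison; other members were named after their values were seen. A joint scale over the 35 libraries is the median ratio of reads to the gene's geometric mean.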

Additional observations from a re-analysis of the deposited data

Results flagged for a closer look

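Among 140 groups of 7 libraries, 1 for each named member and group, 7 held a library far from the other 6. Chance flags about 1 group in 20, so the count was about what chance alone gives. In healthy lungs, GABARAPL1 was lowest in replicate 6, at 516 normalized reads against 757 to 1012 in the others. ATP6V0D2 was lowest in healthy replicate 7, at 102 against 260 to 427. ATP6V1H was highest in healthy replicate 6, at 1158 against 721 to 864, and also in NaCl replicate 1, at 1153 against 552 to 684. VPS41 was highest in NaCl replicate 7, at 1100.4 against 627 to 777. In MSC lungs ATP6V1A was lowest in replicate 6, at 17.5 against 56.4 to 109, and NPC2 was lowest in replicate 1, at 3461 against 5652 to 8067. Without NaCl replicate 1, ATP6V1H was called lower in NaCl than in healthy lungs. GABARAPL1 and VPS41 kept their calls whichever library was left out.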

How the results depend on the processing

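Of the members called in NaCl over healthy lungs, 12 were higher and 20 lower. The higher count was 5 with library-total scaling and 6 among libraries with a title ending, and the lower count was 12 among libraries without a title ending and 12 at an adjusted p threshold of 0.01. Leaving out each library in turn gave 12 to 16 higher and 18 to 22 lower, and over the other settings the counts ran from 5 to 15 and from 12 to 30. Of the named members, ATP6V0D2 gained a call without healthy replicate 6 or NaCl replicate 5, CTSS without NaCl replicate 5, and ATP6V1H and VPS13C without NaCl replicate 1; VPS39 and VPS13B lost theirs as given above. In MSC over NaCl lungs the count of 0 became 5 with DESeq2 and 6 with library-total scaling, and in ceftaroline over NaCl lungs it became 5 with DESeq2. With edgeR and with each library left out it was 0 in both, and edgeR called 0% of all genes in both. The cause was not tested. Library-total scaling turned the direction of ATP6V0A1 (-0.042), NPC2 (-0.19), TFEB (-0.28) and BECN1 (-0.29). Among libraries without a title ending ATP6V1H (0.035), NPC2 (-0.21) and BECN1 (-0.045) turned, and among those with one CTSS (-0.31) and TFEB (-0.029). Only ATP6V0A1 of these was called in all libraries. The comparison among libraries with a title ending was chosen after seeing the data. For ceftaroline plus MSC over ceftaroline, the fit with the titles' numbers as a replicate block called 0 members, as did the fit without it; the correlation of same-numbered lungs was -0.38 to 0.48, and no lung matched best with its own number. Over single named members, 1125 values kept direction and side of the threshold, 44 lost and 24 gained the call and 9 turned. The number of rabbits, 7 per group, and the few reads of members such as MCOLN3 limit the precision.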
